A study of Mus musculus with 30 samples.

Results

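The 37 genes described here are germline and meiosis genes that were listed by name and then looked up by symbol. The list was chosen with earlier results of these data known. Counts of its members beside the shares of all genes are therefore descriptions, not an independent test. All 37 were found among the 55487 genes counted in 18 mouse RNA-seq libraries, and H3K9me3 regions within 5 kb of each gene were taken from 6 ChIP-seq libraries. The libraries belong to a study of ETV2, or ER71, and KDM4A. ETV2 is a transcription factor of the ETS family that acts in the earliest blood and endothelial cells, and KDM4A is a histone demethylase that acts on H3K9. Every library was labelled as embryonic stem cells.

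RNA was counted in 6 groups of 3 libraries. The iETV2 line, in which doxycycline (DOX) induces Etv2, gave untreated and DOX-treated libraries. So did iETV2-KDM4A (H188A), called the H188A line below, whose name adds KDM4A with an amino acid substitution. The last pair of groups had the genotypes Control and KDM4A/4C DKO, which names the loss of both Kdm4a and Kdm4c; the labels give neither their parent line nor their DOX state. The labels name no separate clones, cultures or times for the RNA libraries, so each p-value measures the spread between these samples, which may be technical. The ChIP groups were 3 untreated and 3 DOX libraries.

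Meiosis is the division that makes haploid germ cells. Its chromosomes are held by special cohesin complexes, aligned by the synaptonemal complex and recombined after programmed DNA breaks. Germ cells also make piRNAs, small RNAs that silence transposons in granules built from Tudor domain proteins. In other cells many of these genes are silenced at CpG-rich promoters by DNA methylation and by the Polycomb complex PRC1.6, whose MGA and MAX subunits bind an E-box and whose E2F6 subunit binds an E2F motif. In mouse embryonic stem cells part of the set is known to be transcribed at low levels.

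Promoter sequences are given first because these motifs are the ones by which that complex finds germline genes. RefSeq promoters (GRCm38.p6) were matched for 31 of the 37 genes, and the 250 bases before each start site were searched on both strands. The E-box CACGTG, which reads the same on both strands, lay in 13 of the 31 promoters (41.9%), beside 6.64% of 17491 promoters of protein-coding genes. The E2F motif GCGGGAA, or TTCCCGC on the other strand, lay in 8 (25.8%), beside 4.95% of all promoters. Both motifs were found in Hormad1, Sycp3 and Ddx4, and at least 1 of them in 18 members (58.1%), beside 11.2% of all promoters. The sequence CCGGAA, or TTCCGG, is a form of the motif of the ETS family that ETV2 belongs to. It lay in 2 of the 31 (6.45%), Asz1 and Hormad2, beside 15.2% of all promoters. Shorter or other forms of the ETS motif were not searched. The median ratio of observed to expected CpG was 0.67 in the members and 0.54 in all promoters. An E-box and an E2F match can share at most 1 base, at their ends. A match is a description of the letters, not evidence of binding, and no match says only that these letters are not in the window.

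The members with both motifs, followed by those with 1 motif and the smallest adjusted p for DOX in iETV2, are printed 5′ to 3′ on the gene strand with the motif in capitals. Stretches that fall inside the annotated span of a gene are kept to a few bases around each motif. Dazl holds neither motif and is printed because an H3K9me3 region covered its start site in all 6 ChIP libraries, a choice made after its values were seen. The Sycp3 stretch is chr10:88459415-88459574 (+), that of Hormad1 chr3:95559557-95559676 (+) and that of Dazl chr17:50293621-50293720 (-). Those of Ddx4 are chr13:112652430-112652456 and chr13:112652324-112652349 (-). The Tex14 stretch is chr11:87404928-87404984 (+), that of Stag3 chr5:138280329-138280354 (+) and that of Meioc chr11:102665347-102665373 (+). That of Smc1b is chr15:85131974-85132030 (-) and that of Tdrd5 chr1:156303582-156303598 (-).
Sycp3: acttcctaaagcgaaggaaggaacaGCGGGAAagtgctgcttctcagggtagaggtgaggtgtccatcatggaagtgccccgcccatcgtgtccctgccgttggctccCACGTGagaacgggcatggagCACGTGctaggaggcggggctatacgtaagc
Hormad1: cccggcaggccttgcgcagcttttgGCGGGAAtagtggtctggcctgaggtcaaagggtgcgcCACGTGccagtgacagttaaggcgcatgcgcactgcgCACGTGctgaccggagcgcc
Ddx4, E2F motif: cgtccatgggGCGGGAAgtcgcgcgcc
Ddx4, E-box: cgtccgcccgCACGTGcagccgttta
Tex14: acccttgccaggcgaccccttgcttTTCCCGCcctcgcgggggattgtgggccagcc
Stag3: cgctggagccCACGTGacaggactgc
Meioc: cttcctttgaGCGGGAAacatcttcag
Smc1b: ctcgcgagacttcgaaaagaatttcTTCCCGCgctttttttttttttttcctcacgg
Tdrd5: TTCCCGCggcttcggga
Dazl: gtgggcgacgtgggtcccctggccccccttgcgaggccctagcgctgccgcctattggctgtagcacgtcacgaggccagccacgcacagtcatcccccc

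Several features of the libraries bear on what follows. Library totals were 40334911 to 68970038 counts. Counts over 1754 olfactory, vomeronasal and trace-amine receptor genes, which most cells other than sensory neurons do not transcribe, came to 598, 195.1 and 49.1 CPM (a gene's counts scaled to the library total) in the untreated H188A libraries and to 18.5 to 181.9 CPM in the other 15 libraries. Etv2 stood at 2.93 ± 0.18 CPM in iETV2 and 18.6 ± 0.89 with DOX, and at 0.376 ± 0.27 and 15.2 ± 3.5 CPM in the H188A line. Kdm4a was at 85.3 ± 2 and 87.3 ± 3.6 CPM in iETV2 without and with DOX. In the H188A line, whose name adds KDM4A, it was no higher, at 83.5 ± 3.2 and 86.9 ± 2.9 CPM. Kdm4c was at 78.4 ± 5.4 and 57.1 ± 1.8 CPM in iETV2 and at 111 ± 4.6 and 105 ± 1.7 CPM in the H188A line. In the DKO experiment Kdm4a went from 54.6 ± 0.94 CPM in controls to 43.9 ± 2.6 CPM and Kdm4c from 30.7 ± 1.3 to 45.5 ± 2.6 CPM. The rise of Kdm4c goes against the label, and counts per gene cannot show a small deletion, so these samples are called the libraries labelled DKO. Their controls, although labelled embryonic stem cells, held Pou5f1, the core pluripotency factor, at 22.8 ± 0.53 CPM beside 369 ± 18 CPM in the libraries labelled DKO, and 10 endothelial and blood markers summed to 1137.61 to 1167.59 CPM beside 187.82 to 194.19 CPM. In bulk RNA, fewer cells of a type and less RNA per cell cannot be told apart.

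The members were transcribed at different levels in the 6 groups. Their CPM summed to 200.68 ± 5.49 in iETV2 (mean ± SD, n = 3) and to 232.53 ± 4.39 with DOX. The sum was 369.17 ± 2.11 in the H188A line without and 352.19 ± 22.25 with DOX. In that last group replicate 1 stood apart, with a member sum of 326.6 CPM beside 367.3 and 362.6 CPM, and with Cubn, a visceral endoderm marker, at 656 CPM beside 323 and 315 CPM. The member sum was 72.16 ± 2.93 in the controls of the DKO experiment, the lowest of the 6 groups, and 420.14 ± 7.86 in the libraries labelled DKO. The number of members with a group mean of at least 1 CPM followed another order, from 10 in those controls and 15 in untreated iETV2 to 24 in iETV2 with DOX, 24 in the libraries labelled DKO, and 29 and 28 in the H188A line without and with DOX. The sum in untreated iETV2 rested largely on a few genes with more than 14 CPM in every library: Tdrd5, Tex15, Stag3, Rec8 and Syce2.

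**Figure D1:**
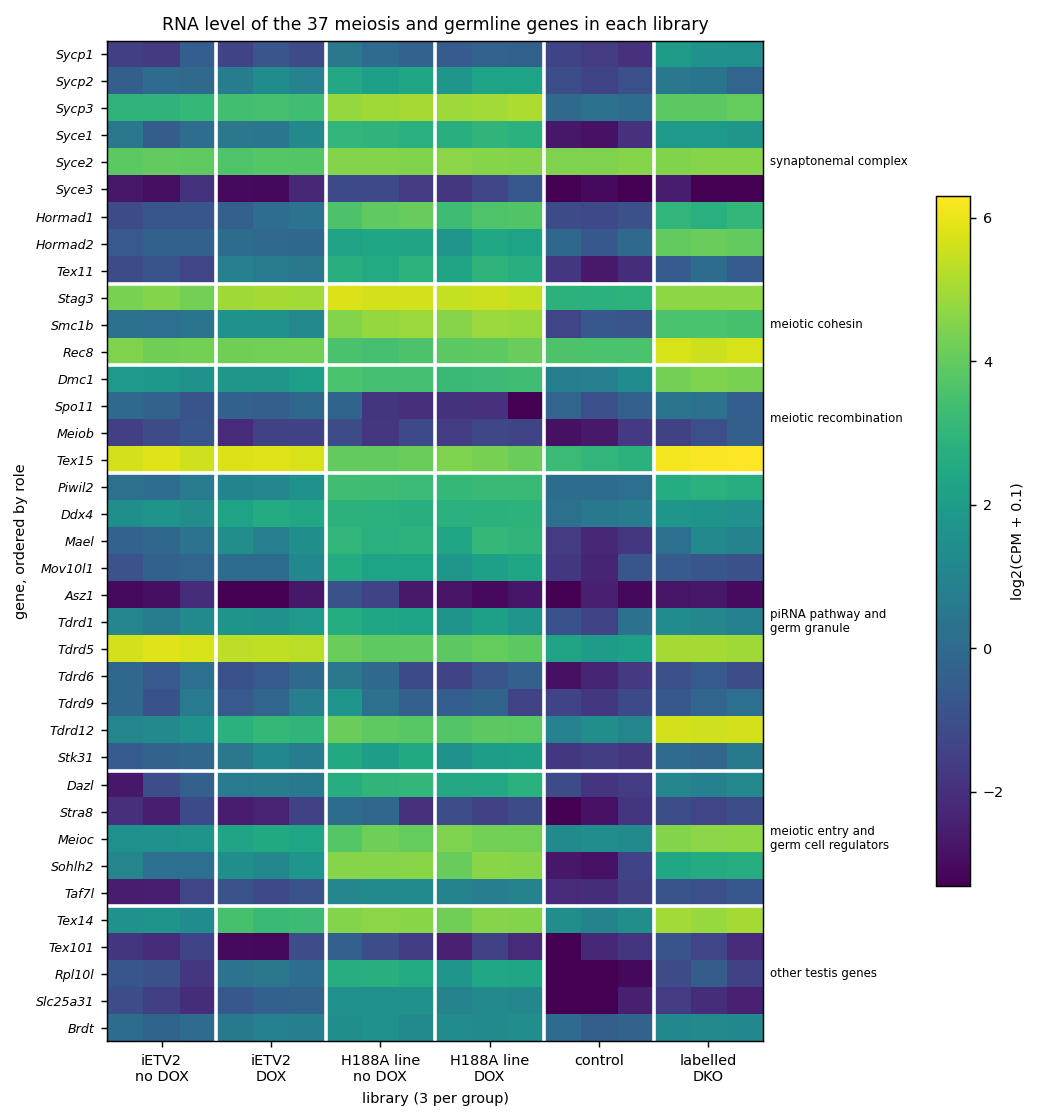
Level of each of the 37 genes (rows, ordered by role) in each of the 18 RNA libraries (columns, 3 per group) as log2(CPM + 0.1), the same colour scale throughout. Many rows are dark (low) in the controls, where the members sum to 72.16 CPM, and brighter in both H188A groups and the libraries labelled DKO. Asz1, Syce3, Tex101, Meiob and Stra8 stay under 1 CPM in all 18 libraries.

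The first comparison asked what DOX changed in the iETV2 line. Of the 37 members 33 had enough counts to be tested, and 17 rose and 1 fell; over all 22025 genes tested, 13.7% rose and 13.3% fell at an adjusted p under 0.05. The median log2 change was 0.88 over the members and 0.00 over all genes tested. Synaptonemal complex, cohesin, piRNA and regulator genes were among those that rose, and 0 of the 4 recombination genes passed the edgeR test in either direction, also at an unadjusted p under 0.05. Syce3, Asz1, Stra8 and Tex101 were too low to test.

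Tex14 (ENSMUSG00000010342, chromosome 11, 87405013 to 87555823, GRCm38) is needed for the intercellular bridges that join germ cells. It stood at 2.85, 3.09 and 2.47 CPM without DOX and at 11.2, 9.21 and 9.65 CPM with DOX. The treated libraries were all above the untreated ones, and the log2 change was 1.84 ± 0.14 (SE, adjusted p = 4.12e-08). Dazl (ENSMUSG00000010592, chromosome 17, 50279393 to 50293620), an RNA-binding protein that licenses germ cells to enter their sexual programme, stood at 0.052, 0.379 and 0.681 CPM without and 1.44, 1.54 and 1.4 CPM with DOX. The groups did not overlap, the untreated libraries were spread widely, and the log2 change was 2.04 ± 0.54 (adjusted p = 0.00991). This call ended when DOX replicate 1 or 2 was left out. Meioc (ENSMUSG00000051455), which keeps meiotic prophase going, went from 2.75, 2.88 and 3.03 CPM to 4.85, 5.63 and 5.05 CPM. The groups stood apart, with a log2 change of 0.86 ± 0.14 (adjusted p = 0.000236). Sohlh2, a transcription factor of early germ cells, rose by 0.98 ± 0.28, a call that ended without untreated replicate 2 or 3 or DOX replicate 1. Taf7l, a testis subunit of the general transcription machinery, had a log2 change of 1.54 ± 0.72 that did not pass (adjusted p = 0.139). Stra8, the retinoic acid target that opens meiosis, was at 0.155, 0.076 and 0.352 CPM without DOX and at 0.07, 0.088 and 0.273 CPM with DOX.

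Of the piRNA and germ granule genes, 6 of 10 tested rose and 1 fell. Tdrd12 (ENSMUSG00000030491, chromosome 7, 35466941 to 35537784), a Tudor domain helicase of the piRNA amplification loop, stood at 2.06, 2.21 and 2.94 CPM without DOX and 7.01, 8.4 and 7.82 CPM with DOX. Every treated library was above every untreated one, with a log2 change of 1.72 ± 0.14 (adjusted p = 1.56e-07). Ddx4 (ENSMUSG00000021758, chromosome 13, 112598333 to 112652633), the germ cell helicase known as Vasa, went from 2.68, 3.05 and 2.63 CPM to 4.74, 6 and 5.42 CPM. That is a log2 change of 0.96 ± 0.15 (adjusted p = 0.000157) between groups that did not overlap. Piwil2 (ENSMUSG00000033644), a PIWI protein that carries piRNAs, went from 1.06, 1 and 1.43 CPM to 1.95, 2.07 and 2.91 CPM (log2 change 1.01 ± 0.25, adjusted p = 0.00636). Mael (ENSMUSG00000040629), a transposon silencing factor, went from 0.722, 0.864 and 1.17 CPM to 2.6, 1.73 and 2.71 CPM (log2 change 1.37 ± 0.28, adjusted p = 0.00118). For both genes the groups were separate and the treated libraries higher. Stk31 rose by 1.25 ± 0.31 and Tdrd1, a scaffold of germ granules, by 0.73 ± 0.19. The Stk31 call ended without DOX replicate 2, and that of Tdrd1 without DOX replicate 1 and in the fit of all 18 libraries. Mov10l1, the helicase that starts piRNA processing, changed by 1.08 ± 0.39 and did not pass (adjusted p = 0.0534).

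Tdrd5 (ENSMUSG00000060985, chromosome 1, 156255296 to 156304304), another Tudor domain protein, was the member that fell. It stood at 51.1, 57.1 and 52.6 CPM without DOX and at 40.2, 41.1 and 39.3 CPM with DOX. The groups did not overlap, and the log2 change was -0.40 ± 0.07 (adjusted p = 0.000495). The remaining genes that were already above 14 CPM in untreated iETV2 differed among themselves. Stag3 (ENSMUSG00000036928, chromosome 5, 138272514 to 138312397), a meiotic cohesin subunit, stood at 20.5, 22.7 and 19.3 CPM without and 30.5, 32.2 and 31 CPM with DOX, a log2 change of 0.59 ± 0.08 (adjusted p = 4.59e-05). Tex15, needed for meiotic recombination and piRNA-guided silencing, was at 51.6, 56.2 and 48.7 CPM and then 56.2, 57.4 and 52.1 CPM, and the groups overlapped (log2 change 0.09 ± 0.08, adjusted p = 0.486). Rec8 (ENSMUSG00000002324), the cohesin subunit that is cleaved at the meiotic divisions, was at 21.7, 18.5 and 19.4 CPM and then 18.4, 18.7 and 19 CPM (log2 change -0.07 ± 0.08, adjusted p = 0.603). Syce2 was at 14.4, 15.8 and 15.6 CPM without DOX and 12.4, 13.4 and 13.2 CPM with DOX (log2 change -0.22 ± 0.08, adjusted p = 0.0627); its groups did not overlap, but the change did not pass.

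Among the structural genes, Tex11 (ENSMUSG00000009670, chromosome X, 100838648 to 101059639), an X-linked factor that acts in synapsis and crossover formation, stood at 0.361, 0.47 and 0.305 CPM without DOX and at 1.72, 1.5 and 1.36 CPM with DOX. The groups were well apart, with a log2 change of 2.00 ± 0.35 (adjusted p = 0.000371). Smc1b (ENSMUSG00000022432), the meiotic SMC subunit of cohesin, went from 1.12, 1.03 and 1.2 CPM to 2.92, 2.92 and 2.22 CPM (log2 change 1.29 ± 0.23, adjusted p = 0.000422). Sycp3 (ENSMUSG00000020059, chromosome 10, 88459587 to 88473236), which builds the chromosome axis, went from 7.56, 7.57 and 8.5 CPM to 10.4, 10.9 and 10.1 CPM (log2 change 0.43 ± 0.10, adjusted p = 0.00296). In each of these pairs all treated libraries were higher. Sycp2, its axis partner, rose by 1.26 ± 0.28. Hormad1, an axis protein that recruits the DNA break machinery, changed by 1.07 ± 0.41 and did not pass (adjusted p = 0.0672), although its groups did not overlap. Dmc1, the meiotic recombinase, was at 3.56, 3.4 and 2.98 CPM and then 3.32, 3.3 and 4.18 CPM, overlapping groups with a log2 change of 0.12 ± 0.17. Spo11, which makes the DNA breaks, stood at 0.703 ± 0.22 and 0.728 ± 0.11 CPM.

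Of the other testis genes, Rpl10l, a testis copy of a ribosomal protein gene, rose from 0.37 ± 0.16 to 1.19 ± 0.17 CPM (log2 change 1.66 ± 0.42). The Rpl10l call ended without DOX replicate 2. Brdt, a testis bromodomain protein, rose from 0.887 ± 0.11 to 1.61 ± 0.2 CPM (0.88 ± 0.28, adjusted p = 0.0275), and that call ended in 5 of 6 fits that left out 1 library. Slc25a31, the testis ADP/ATP carrier, had a log2 change of 1.27 ± 0.54 that did not pass (adjusted p = 0.101). Some counts are less certain than their error: Rpl10l is a close copy of Rpl10, and Sycp3, Syce2, Stag3, Smc1b, Meiob and Tdrd9 overlap the annotated genes Chpt1, Gcdh, Gal3st4 with Gpc2, Fam118a, Hagh and Rd3l, while no source used here gives the strand setting of the counts. Tex14 spans 9 annotated genes, small RNA genes such as Rnu1a1 among them, and Tdrd12, Sycp1, Sycp2, Syce1, Hormad1, Tex11, Spo11, Piwil2, Mov10l1, Stk31 and Brdt overlap genes known only by Gm symbols, so their counts have the same limit. Endothelial and blood markers moved with DOX too, from sums of 34.71 to 40.72 CPM to sums of 561.26 to 574.74 CPM, with all 10 higher, and 9 of 13 naive pluripotency genes rose, from sums of 338.25 to 351.25 CPM to sums of 616.35 to 641.23 CPM. Of 12 primordial germ cell markers 6 rose and 4 fell, with sums of 236.08 to 243.33 CPM and then 320.82 to 337.27 CPM. Their part in the change of the members was not tested.

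**Figure D2:**
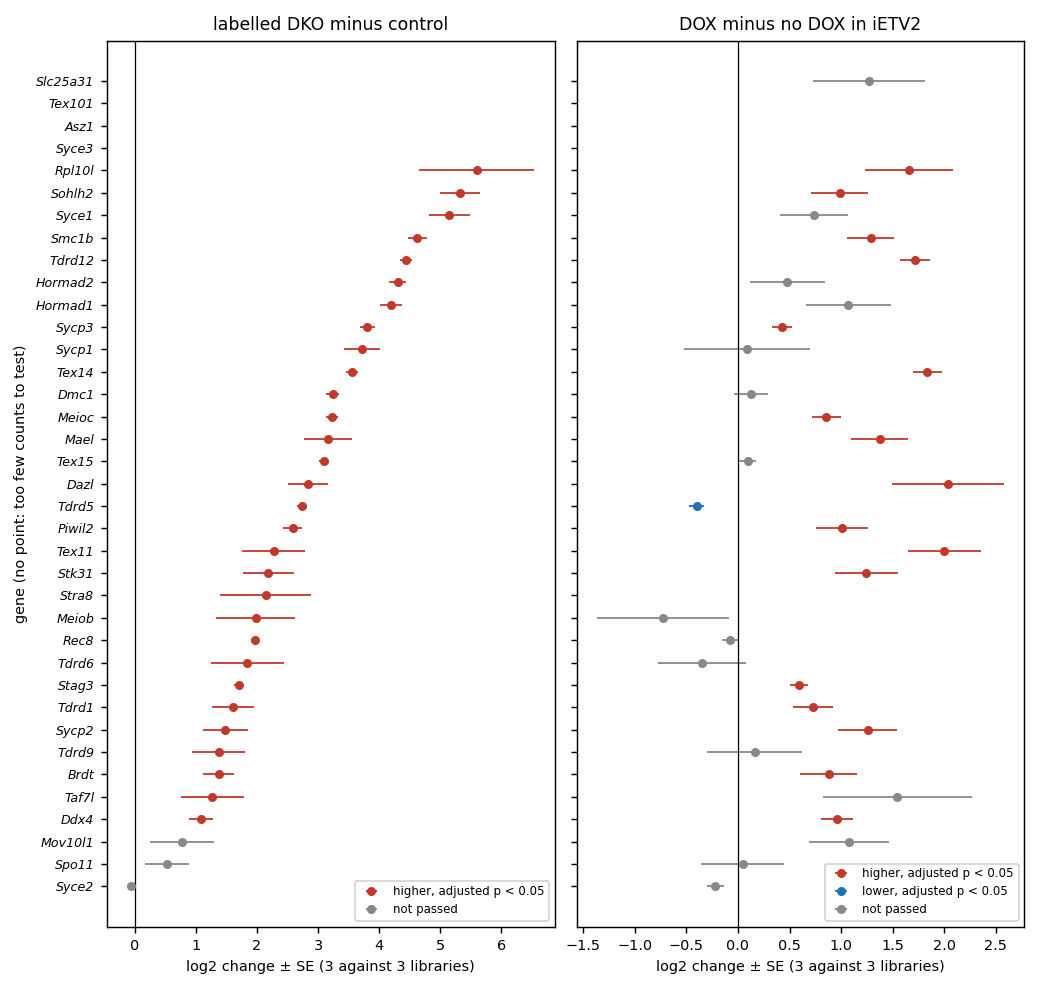
Log2 change ± SE of each member (rows, the same order in both panels) between the libraries labelled DKO and their controls (left) and between iETV2 with and without DOX (right), 3 libraries against 3, coloured by edgeR's adjusted p. In the left panel 30 points are red and none is blue, and in the right panel 17 are red and 1, Tdrd5, is blue; the left point of Rpl10l rests on a control group with 1 count.

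The same treatment was compared in the H188A line. Of 35 members tested, 1 rose and 0 fell, beside 2.22% and 0.801% of 21086 genes tested (3.02% in either direction), and at an unadjusted p under 0.05 edgeR had 3 higher and 5 lower. DESeq2 gave the same counts, 1 and 0. The median log2 change was -0.09 over the members and -0.01 over all genes. Rec8 stood at 11.7, 10.8 and 12 CPM without DOX and at 14.6, 14.9 and 17.1 CPM with DOX, so the groups did not overlap, with a log2 change of 0.48 ± 0.09 (adjusted p = 0.0303). The call ended with the receptor sum as a covariate (adjusted p = 0.219) and when untreated replicate 1 or 2 or DOX replicate 2 or 3 was left out (adjusted p = 0.0717 to 0.201). Without DOX replicate 1, the library that stood apart, 1 rose and 0 fell; the interaction then had 16 lower and 1 higher.

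The genes that had risen in iETV2 were at high levels in the H188A line before treatment. Tex14 was at 22.6, 24.4 and 24.2 CPM without and 18.5, 23.7 and 22.6 CPM with DOX (log2 change -0.09 ± 0.09). Tdrd12 was at 17.1, 14.8 and 14 CPM and then 13.2, 14.7 and 14.2 CPM (-0.07 ± 0.09), and Dazl at 6.27, 7.81 and 8.28 CPM and then 5.45, 5.55 and 6.91 CPM (-0.28 ± 0.15). For these 3 genes the groups overlapped. Stag3, at 55.8, 50.4 and 49.8 CPM without and 43.9, 47.7 and 43.8 CPM with DOX, had groups apart but did not pass (-0.16 ± 0.06, adjusted p = 0.181). Sycp3 stood at 27.3, 30.7 and 31.7 CPM and then 30, 30.9 and 35.1 CPM, and Mael at 8.06, 6.75 and 7.32 CPM and then 4.91, 8.49 and 7.86 CPM, both with overlap. Several members with few counts fell from untreated library 1 to 3 in the order of the receptor sum. Tdrd9 was at 3.12, 1.06 and 0.681 CPM in those libraries, which had 598, 195.1 and 49.1 CPM in receptor genes, and Stra8 was at 0.967, 0.8 and 0.159 CPM. Sycp1, Spo11, Asz1, Tdrd6 and Tex101 had the same order. The part of that background in their values was not tested gene by gene.

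The difference between the 2 DOX responses was tested as an interaction over 12 libraries. For 19 of 36 members tested the change was lower in the H188A line and for 3 it was higher, beside 6.2% and 8.22% of 25516 genes tested. The median difference of log2 changes was -1.0 over the members and -0.13 over all genes. The differences were -1.92 ± 0.17 for Tex14 (adjusted p = 1.75e-06), -1.78 ± 0.16 for Tdrd12 (1.56e-06), -2.03 ± 0.30 for Tex11 (0.000228) and -0.74 ± 0.12 for Stag3 (0.000354). They were -1.23 ± 0.21 for Smc1b (0.000823), -1.09 ± 0.20 for Piwil2 (0.00159), -2.34 ± 0.51 for Dazl (0.0047), -0.85 ± 0.18 for Ddx4 (0.00361) and -1.38 ± 0.31 for Mael (0.00602). By role, the change was lower for 7 of 10 piRNA and germ granule genes, 3 of 9 synaptonemal complex genes, 2 of 3 cohesin genes, 3 of 5 regulators and 4 of 5 other testis genes. Of the 4 recombination genes the smallest adjusted p was 0.332, for Tex15. The 3 with a higher change were Rec8 (0.56 ± 0.14, adjusted p = 0.00974), Tdrd5 (0.39 ± 0.11, 0.0267) and Syce2 (0.33 ± 0.10, 0.042). The calls of Syce2 and Tdrd5 ended in 11 and 8 of the 12 fits that left out 1 library, and those of Taf7l and Brdt in 10 each. That of Mov10l1 ended in 7 of them and in the fit of all 18 libraries, and that of Sohlh2 without untreated iETV2 replicate 2 or 3. With the receptor sum as a covariate 19 were lower and 1 higher, not all of them the same genes, since the calls of Tdrd5, Syce2, Brdt and Mov10l1 ended. The interaction uses the same libraries as both DOX comparisons, so it is not a further observation of either.

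**Figure D3:**
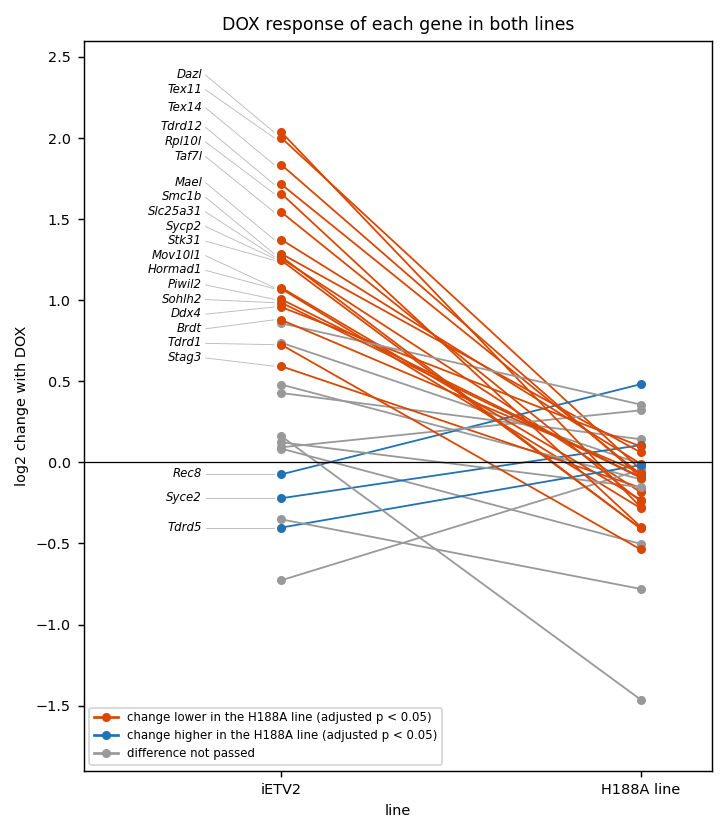
Log2 change with DOX of each member tested in both lines, in iETV2 (left) and in the H188A line (right), joined by a line per gene and coloured by the edgeR test of the difference. The orange lines fall from changes of up to 2.04 in iETV2 to values around 0 in the H188A line, whose member median is -0.09, and the 3 blue lines are Rec8, Syce2 and Tdrd5.

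The lines themselves differed in both states. Without DOX, 26 of 36 members were higher and 3 lower in the H188A line than in iETV2 (19.7% and 18.6% of 25516 genes tested), with a median log2 difference of 2.26 over the members and 0.10 over all genes. With DOX, 25 were higher and 3 lower (19.9% and 17.6% of all genes), with medians of 1.31 and -0.08. Leaving out any 1 library gave 25 to 27 higher without DOX and 23 to 26 with DOX. The lines were sampled in separate groups, so the line and anything else that differed between those groups cannot be told apart.

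The genes with large differences came from several roles. Hormad1 was at 0.361, 0.5 and 0.493 CPM in untreated iETV2 and at 12.1, 15.2 and 16.8 CPM in the untreated H188A line, a log2 difference of 5.08 ± 0.22 (adjusted p = 3.32e-11). Smc1b was at 1.12, 1.03 and 1.2 CPM against 22.6, 27.5 and 29 CPM (4.62 ± 0.16), and Dazl at 0.052, 0.379 and 0.681 against 6.27, 7.81 and 8.28 CPM (4.46 ± 0.39). No library of either line overlapped with the other in these genes. Sohlh2 differed by 4.15 ± 0.22, Tex11 by 4.14 ± 0.23, Rpl10l by 4.04 ± 0.29, Taf7l by 4.03 ± 0.43 and Slc25a31 by 3.42 ± 0.32. With DOX these differences were 3.73 ± 0.20 for Hormad1, 3.40 ± 0.14 for Smc1b and 2.12 ± 0.33 for Dazl. Tdrd12, at 7.01, 8.4 and 7.82 CPM in treated iETV2 and 13.2, 14.7 and 14.2 CPM in the treated H188A line, still differed by 0.95 ± 0.11 (adjusted p = 3.3e-06). Tdrd1 no longer passed (0.23 ± 0.17, adjusted p = 0.298).

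The genes that were lower in the H188A line were among those transcribed in iETV2 without treatment. Tex15 was at 15.7, 15.7 and 17.3 CPM in the untreated H188A line, beside 51.6, 56.2 and 48.7 CPM in untreated iETV2 (log2 difference -1.63 ± 0.10, adjusted p = 3.91e-09). Tdrd5 was at 17.2, 15.1 and 15.3 CPM beside 51.1, 57.1 and 52.6 CPM (-1.71 ± 0.08). Both stayed lower with DOX, by -1.40 ± 0.10 for Tex15 and -1.32 ± 0.08 for Tdrd5. Rec8 was lower without DOX (-0.73 ± 0.10) and did not pass with DOX (-0.17 ± 0.10, adjusted p = 0.172). The third gene that was lower with DOX was Spo11, at 0.109 ± 0.094 CPM beside 0.728 ± 0.11 CPM in treated iETV2 (-2.67 ± 0.85, adjusted p = 0.0208). Naive pluripotency genes differed between the lines as well, with sums of 1586.89 to 1610.17 CPM in the untreated H188A line beside 338.25 to 351.25 CPM in untreated iETV2. Visceral endoderm markers summed to 566.94 to 594.65 CPM beside 222.3 to 239.62 CPM, with 5 of 10 higher and 2 lower. Most of the higher sum was Cubn, at 421.6 ± 3.3 CPM beside 2.79 ± 0.87 CPM. The 2 lower genes were Foxa2, at 5.455 ± 0.859 beside 108.7 ± 6.3 CPM, and Sox17, at 15.42 ± 0.985 beside 28.7 ± 1.8 CPM. Primordial germ cell markers had 9 of 13 higher and 1 lower. Of 11 genes of the 2-cell-like state 9 were higher, at sums of 9.38 to 15.72 CPM beside 0.64 to 5.17 CPM. The part of these lists in the difference of the members was not tested.

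**Figure D4:**
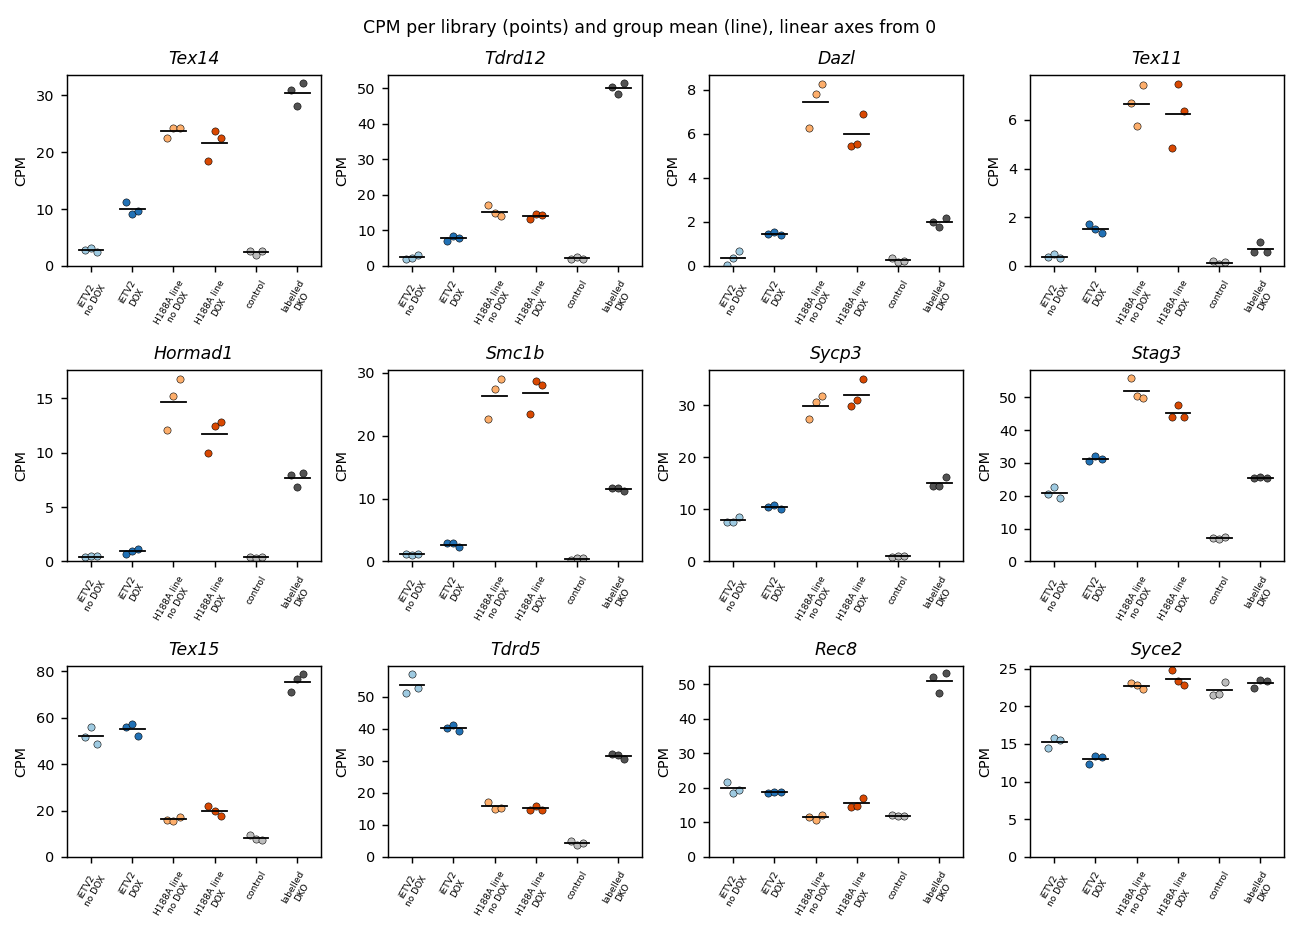
CPM of 12 members in each of the 18 RNA libraries (points) with the mean of each group (line), on linear axes that start at 0 and differ between panels. Tex14, Tdrd12, Dazl, Tex11, Hormad1, Smc1b, Sycp3 and Stag3 are lower in untreated iETV2 and in controls than in both H188A groups, whereas Tex15 and Tdrd5 are higher in iETV2 than in the H188A line and Syce2 lies between 12.4 and 24.8 CPM in all 18 libraries.

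The third comparison set the libraries labelled DKO against their controls. Of 33 members tested, 30 rose and 0 fell. This comparison called most of the transcriptome: 35.6% of 20426 genes rose, 33.7% fell and 69.3% changed in either direction. At an unadjusted p under 0.05 edgeR also had 30 higher and 0 lower, and DESeq2 had 29 and 0. The median log2 change was 2.59 over the members and 0.04 over all genes, and every call was a log2 change of at least 1. Syce2, Spo11 and Mov10l1 did not pass, and Syce3, Asz1, Tex101 and Slc25a31 were too low to test. With the receptor sum, 18.51 to 56.89 CPM in controls and 58.43 to 62.97 CPM in the libraries labelled DKO, as a covariate, 24 rose; the calls of the low genes Meiob, Stra8, Taf7l, Tdrd1, Tdrd6 and Tdrd9 ended. Taf7l also lost its call in DESeq2 and in 5 of 6 fits that left out 1 library.

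In the synaptonemal complex, 7 of 8 genes tested rose. Sycp3 was at 0.916, 1.1 and 0.964 CPM in controls and at 14.5, 14.4 and 16.3 CPM in the libraries labelled DKO, a log2 change of 3.80 ± 0.12 (adjusted p = 6.06e-17). The axis proteins Hormad1 (4.20 ± 0.18) and Hormad2 (4.30 ± 0.14) and the central element protein Syce1 (5.15 ± 0.34) had larger changes, and Syce1 started from 0.084 ± 0.065 CPM. Sycp1, the transverse filament, rose from 0.22 ± 0.065 to 3.17 ± 0.64 CPM, and Sycp2 from 0.367 ± 0.063 to 1.13 ± 0.31 CPM. Tex11 was at 0.198, 0.059 and 0.142 CPM and then 0.578, 0.971 and 0.589 CPM (2.27 ± 0.52). The exception was Syce2, at 21.5, 21.7 and 23.2 CPM in controls and 22.5, 23.5 and 23.3 CPM in the libraries labelled DKO, overlapping groups with a log2 change of -0.06 ± 0.06.

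All 3 cohesin genes rose. Rec8 was at 12.1, 11.9 and 11.9 CPM in controls and at 52.1, 47.5 and 53.3 CPM in the libraries labelled DKO (1.97 ± 0.06, adjusted p = 3.58e-17). Smc1b was at 0.305, 0.51 and 0.474 CPM and then 11.7, 11.8 and 11.2 CPM (4.62 ± 0.16), and Stag3 at 7.22, 6.96 and 7.43 CPM and then 25.4, 25.6 and 25.4 CPM (1.70 ± 0.07). The groups were far apart in all 3. Of the recombination genes, Tex15 was at 9.25, 7.88 and 7.23 CPM and then 71.3, 76.5 and 78.9 CPM (3.10 ± 0.08, adjusted p = 4.68e-19), and Dmc1 at 1.69, 1.75 and 2.5 CPM and then 19.5, 21.4 and 20.4 CPM (3.24 ± 0.11). Meiob, which binds single-stranded DNA at meiotic breaks, rose from 0.1 ± 0.092 to 0.445 ± 0.19 CPM (1.98 ± 0.64, adjusted p = 0.00941). Spo11, at 0.622 ± 0.19 and 0.982 ± 0.31 CPM, did not pass (0.53 ± 0.36, adjusted p = 0.198).

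Of the piRNA and germ granule genes, 9 of 10 tested rose. Tdrd12 had the smallest adjusted p of the members, at 1.81, 2.59 and 1.99 CPM in controls and 50.3, 48.4 and 51.4 CPM in the libraries labelled DKO (4.44 ± 0.09, adjusted p = 2.41e-20). Tdrd5 was at 4.87, 3.8 and 4.25 CPM and then 32.1, 31.7 and 30.5 CPM (2.74 ± 0.09). In Tdrd5 the direction was thus opposite to that with DOX in iETV2, although the difference between those changes was not tested. Piwil2 was at 0.952, 0.961 and 1.04 CPM and then 6.15, 6.99 and 6.23 CPM (2.59 ± 0.16), and Mael at 0.216, 0.118 and 0.19 CPM and then 1.04, 2.24 and 1.87 CPM (3.16 ± 0.39). Ddx4 had the smallest called change of this role, from 1.08, 1.37 and 1.53 CPM to 3.35, 3.09 and 2.8 CPM (1.09 ± 0.20, adjusted p = 4.85e-05). Mov10l1, at 0.262 ± 0.2 and 0.498 ± 0.079 CPM, did not pass (adjusted p = 0.196).

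Among regulators and other testis genes every gene tested rose. Meioc was at 2.26, 2.55 and 2.34 CPM in controls and 22.9, 24.6 and 25.4 CPM in the libraries labelled DKO (3.23 ± 0.09, adjusted p = 6.81e-18), and Tex14 at 2.6, 1.9 and 2.59 CPM and then 30.9, 28.2 and 32.2 CPM (3.55 ± 0.10). Dazl was at 0.359, 0.176 and 0.221 CPM and then 1.99, 1.76 and 2.19 CPM (2.83 ± 0.33, adjusted p = 1.25e-07), and Sohlh2 rose from 0.126 ± 0.14 to 5.91 ± 0.49 CPM (5.32 ± 0.32). These groups did not overlap. Stra8 was at 0, 0.039 and 0.174 CPM and then 0.393, 0.3 and 0.4 CPM, a log2 change of 2.14 ± 0.74 (adjusted p = 0.0142) that did not pass when control replicate 1 or 2 or DKO replicate 1 or 3 was left out. Rpl10l had 1 count in all control libraries together and 64 in the libraries labelled DKO, a ratio of 73.8 with a 95% interval of 12.8 to 2.96e+03 that covers counting error only.

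All 17 members that rose with DOX in iETV2 also rose in the libraries labelled DKO; they are 100% of the first list and 56.7% of the second. The comparisons share no library, and the second called 35.6% of all genes higher. Of the members it tested, the second called 30 of 33 higher, so a nearly full overlap could be foreseen from that share. The control cells differed from the libraries labelled DKO in more than the members. Of 13 naive pluripotency genes 12 rose and 1 fell, with sums of 283.53 to 291.37 CPM in controls and 1430.59 to 1461.61 CPM in the libraries labelled DKO. Of 12 primordial germ cell markers tested 11 rose and 1, Kit, fell. None of this list was at 0 in either group, but Nanos2 was too low to test. It had 13 counts in controls and 3 in the libraries labelled DKO. The sums over the list were 250.23 to 253.06 CPM and 528.49 to 533.9 CPM. All 10 endothelial and blood markers fell. Of 8 fibroblast markers 3 rose and 5 fell, with sums of 468.23 to 481.5 CPM in controls and 101.3 to 109.09 CPM in the libraries labelled DKO. The fall of that sum rests on Col1a1, at 393.2 ± 2.5 CPM in controls and 13.8 ± 0.88 CPM in the libraries labelled DKO. Etv2 was at 8.05 ± 0.67 CPM in controls and 2.92 ± 0.45 CPM in the libraries labelled DKO. The part of these genes in the change of the members was not tested.

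Meiosis and piRNA genes outside the 37 were counted in the same way. Of 36 listed, 27 were tested for DOX in iETV2, where 3 rose and 1 fell with a median of 0.07. Over all genes tested in that comparison 13.7% rose and 13.3% fell. Hsf2bp, a partner of BRCA2 in meiotic recombination, rose from 2.4 ± 0.3 to 6.05 ± 0.38 CPM, 4930447C04Rik (also called Six6os1), a central element protein, from 35.1 ± 3.8 to 58.4 ± 2.9 CPM, and Mei4, which supports meiotic break formation, from 1.64 ± 0.23 to 2.66 ± 0.22 CPM. Tdrkh, a Tudor protein of piRNA trimming, fell from 7.95 ± 1.1 to 4.27 ± 0.24 CPM. In the H188A line 0 of 32 passed in either direction by edgeR, with 0 higher and 4 lower at an unadjusted p under 0.05. The shares of all genes that passed there were 2.22% higher and 0.801% lower. The interaction had 5 lower and 1 higher of 32, beside 6.2% and 8.22% of all genes. Hsf2bp was at -1.36 ± 0.14 and Tdrkh at 1.14 ± 0.21. Without DOX 17 of 32 were higher and 2 lower in the H188A line, beside 19.7% and 18.6% of all genes. In the libraries labelled DKO 17 of 28 rose and 6 fell, beside 35.6% and 33.7% of all genes, with a median of 1.34. Hsf2bp went from 0.955 ± 0.15 to 23.9 ± 0.56 CPM there (4.51 ± 0.11), while Tdrkh (-1.75 ± 0.13), the helicase Ddx25 (-1.61 ± 0.14), Psmc3ip (-0.61 ± 0.07) and Ythdc2 (-0.37 ± 0.05) fell.

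Genes that silence germline promoters were listed apart. Of 16 genes for PRC1.6 and other silencers, 2 passed for DOX in iETV2, and both, Hdac2 (-0.30 ± 0.07) and Ring1, were lower. Over all genes tested 13.7% rose and 13.3% fell with DOX in iETV2. In the libraries labelled DKO 6 rose and 8 fell, in a comparison that called 35.6% of all genes higher and 33.7% lower. L3mbtl2 (0.84 ± 0.04), Pcgf6 (0.63 ± 0.05) and Mga (0.48 ± 0.04) rose, while the heterochromatin protein gene Cbx3 (-1.35 ± 0.04), Yaf2 (-0.93 ± 0.05), E2f6 (-0.82 ± 0.05) and Hdac2 (-0.30 ± 0.04) fell. E2f6 was at 52.1 ± 1.4 CPM in controls and 32.1 ± 0.38 CPM in the libraries labelled DKO, and at 57.9 ± 0.38 and 62 ± 1.1 CPM in iETV2 without and with DOX. Of 12 DNA methylation genes, DOX in iETV2 raised 4 and lowered 2, and 7 rose and 5 fell in the libraries labelled DKO. In the untreated H188A line 9 were higher and 1 lower than in untreated iETV2, beside 19.7% and 18.6% of all genes. Dnmt3l, a cofactor of the de novo methyltransferases, was at 6.2 ± 0.081 and 13.6 ± 1.1 CPM in iETV2 without and with DOX, 89.5 ± 4.7 and 84.2 ± 0.94 CPM in the H188A line, 2.73 ± 0.59 CPM in controls and 90.1 ± 1.1 CPM in the libraries labelled DKO. Dnmt1 (-0.48 ± 0.04) and Uhrf1 (-0.56 ± 0.04), which maintain DNA methylation, fell in the libraries labelled DKO. Tet3 fell there too, from 178 ± 2.1 to 51.7 ± 1.3 CPM. Among those that rose there, Tet1 went from 205 ± 1.9 to 801 ± 10 CPM and Dnmt3b from 97.8 ± 1.4 to 315 ± 13 CPM. With DOX in iETV2, by contrast, Dnmt3b fell from 661 ± 13 to 358 ± 7.7 CPM. Of 14 H3K9 methylation genes, 2 passed for DOX in iETV2, both higher, and 6 rose and 6 fell in the libraries labelled DKO. Cbx1 and Cbx3 are on both this list and the list of silencers, so they are counted in each.

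H3K9me3, a mark of silent chromatin, was mapped in libraries that are labelled embryonic stem cells but whose titles, unlike those of the RNA libraries, all begin with EB, which the labels do not explain. The 3 DOX libraries have titles that differ from each other in more than a replicate number (D2, D3 and Er71-Flag D2), and the labels do not say that they are 1 condition. The authors called regions in each library separately, from 37129 to 50838 per library. In the untreated libraries 17, 16 and 14 of the 37 members had a region within 5 kb, beside 26.7%, 27.5% and 27.3% of 20925 protein-coding genes. In the DOX libraries the numbers were 18, 17 and 18, beside 30.7%, 27.4% and 26.7% of genes. The members with a region were thus 37.8% to 48.6% of the 37. A region was present in all 6 libraries for 10 members (27%), beside 19.1% of genes, and in at least 1 library for 21 (56.8%), beside 38.1%. Each window spans the whole gene, so a longer gene has more room for a region. The shares were not matched for gene length.

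DOX and untreated libraries could not be separated by these measures. The mean number of members with a region was 17.667 ± 0.577 with DOX and 15.667 ± 1.53 without, a difference of 2 (exact permutation test, two-sided, p = 0.2; 3 against 3 libraries cannot give less than 0.1). Regions covered 84, 79 and 65.4 kb of the members' windows in the untreated libraries and 93.5, 73 and 76 kb in the DOX libraries. The difference of the means was 4.7 kb (exact permutation p = 0.7), and it turned to -1.62 kb without DOX replicate 1 and to -0.681 kb without untreated replicate 3. In 1 member, Syce3, the covered length in every DOX library was below that in every untreated library, and in 0 members above; over all genes 1.81% were below and 1.35% above. The Syce3 region covered 5000, 4400 and 4600 bp without DOX and 1600, 4200 and 3800 bp with DOX, and the gene was hardly transcribed in any RNA group.

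**Figure D5:**
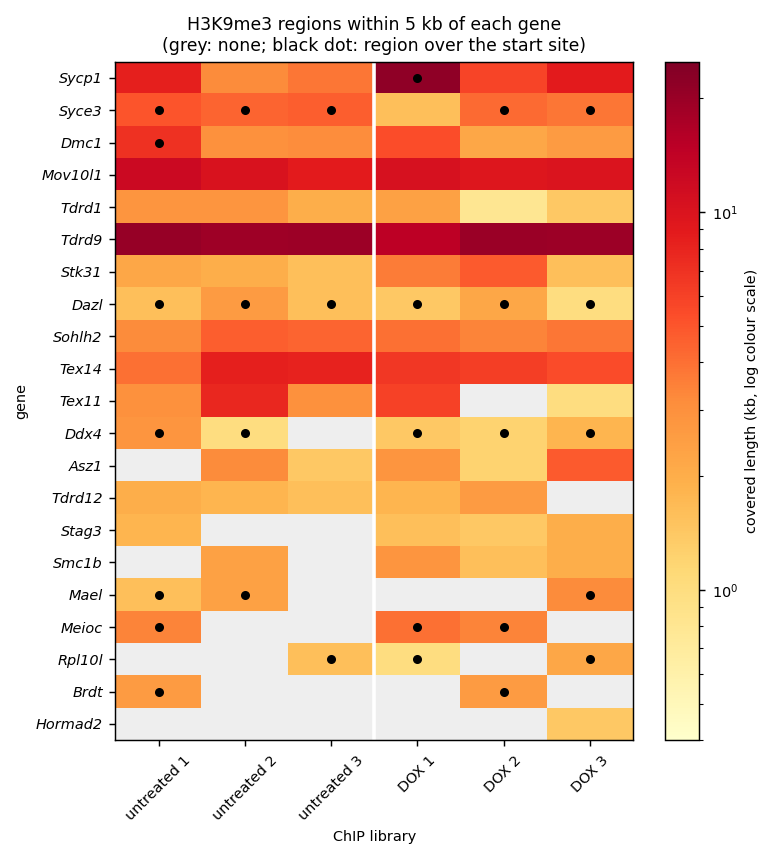
Length in kb covered by the authors' H3K9me3 regions within 5 kb of each of the 21 members that had a region in at least 1 library, in the 3 untreated and 3 DOX libraries (log colour scale; grey, no region; black dot, a region over the start site). Rows near the top are filled in all 6 libraries, Tdrd9 has the longest cover in 5 of the 6, and Dazl alone has a dot in every column.

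A region over the start site itself was found for 7, 4 and 3 of 31 members with a RefSeq start site in the untreated libraries and for 5 in each DOX library; over 16799 genes the shares were 2.95% to 4.89%. Dazl had such a region in all 6 libraries, Ddx4 and Syce3 in 5, and Mael, Meioc and Rpl10l in 3. The Dazl regions were 1600, 2600 and 1600 bp long without DOX and 1400, 2200 and 1000 bp with DOX, and each of them spans the Dazl stretch printed above. Behind them were 116, 159 and 71 ChIP counts beside 38, 47 and 23 input counts without DOX, and 104, 123 and 55 beside 58, 56 and 22 with DOX. The authors' log2 enrichment was 1.62, 1.498 and 1.46 without and 1.05, 1.35 and 1.52 with DOX, so the groups overlapped. At Ddx4 a region of 1000 to 2800 bp lay over the start site, and with it both printed motifs, in every library except untreated replicate 3. In Tex14 a region lay inside the gene in all 6 libraries, far from the annotated gene start at 87405013: the strongest began between 87476601 and 87477601 on chromosome 11. No region within 5 kb was called in any library for Sycp2, Sycp3, Syce1, Syce2, Hormad1, Rec8, Spo11, Meiob, Tex15, Piwil2, Tdrd5, Tdrd6, Stra8, Taf7l, Tex101 or Slc25a31. RNA and ChIP were not measured in the same samples, so no test related a gene's regions to its RNA.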

How the data were processed

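The members, gene lists and tests were chosen with earlier results of these data known. Deposited RNA values are raw counts per Ensembl gene, 1 file per library. The submitters' processing notes name featureCounts 2.0.6, HTSeq 2.0.3, StringTie 2.2.1, STAR 2.7.10b, DESeq2 1.18.1, Picard 3.0.0, ChIPseeker, DiffBind and Bowtie with the builds GRCm38 and mm10, without roles; the strand setting and the region caller are not given in the sources used here. Each H3K9me3 file lists regions with ChIP and input counts, a p-value and FDR (at most 0.05), a log2 enrichment over input and a score, per the file headers; the authors' score and p-value were not used, and the input libraries' own files held no regions.

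Counts were filtered (filterByExpr), scaled by TMM and tested with edgeR 4.0.16 (quasi-likelihood, limma 3.58.1, R 4.3.3), with Benjamini-Hochberg adjustment over all genes tested and a threshold of 0.05. Each DOX comparison and the DKO comparison used its own 6 libraries; the interaction and line comparisons used 12. CPM scales counts to the library total, not to gene length, so levels were not compared between genes. SE was obtained from each log2 change and its F statistic. The scripts were tested on simulated data. Alternatives were DESeq2 1.42.0, RLE size factors, no filter and a strict one (1 CPM in 3 libraries), a replicate block, all 18 libraries in 1 fit, the receptor sum as covariate, and leaving out each library; for regions, windows of 0 and 10 kb, an FDR of 0.01 and 200 bp of overlap (1 bp otherwise). Symbols came from the reference tables, with 1 listed gene (Meiosin) unmatched. Values were given per library for the called members with the smallest adjusted p (up to 6 per direction and comparison) and for Dazl, Ddx4, Sycp3, Stag3, Stra8, Mael, Tex11, Rec8, Piwil2 and Dmc1. From other lists up to 4 genes per direction were named.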

Additional observations from a re-analysis of the deposited data

Results flagged for a closer look

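For 22 members the DOX response differed between the H188A line and iETV2 by the edgeR test of the interaction (adjusted p under 0.05). Values are differences of log2 changes, H188A line minus iETV2. In the synaptonemal complex they were -1.438 for Sycp2, -1.347 for Hormad1, -2.027 for Tex11 and 0.334 for Syce2. In cohesin they were -0.741 for Stag3, -1.225 for Smc1b and 0.562 for Rec8. Among piRNA and germ granule genes they were -1.093 for Piwil2, -0.851 for Ddx4, -1.378 for Mael, -1.295 for Mov10l1, -1.254 for Tdrd1, 0.393 for Tdrd5, -1.783 for Tdrd12 and -1.653 for Stk31. Among regulators they were -2.339 for Dazl, -1.059 for Sohlh2 and -1.81 for Taf7l. Among other testis genes they were -1.916 for Tex14, -2.03 for Rpl10l, -1.657 for Slc25a31 and -0.934 for Brdt. Mov10l1, Taf7l and Slc25a31 had not passed for DOX in iETV2 alone.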

How the results depend on the processing

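Of the members called, 12 of 18 for DOX in iETV2, 0 of 1 in the H188A line, 14 of 22 in the interaction, 28 of 29 and 26 of 28 between the lines without and with DOX, and 24 of 30 in the DKO comparison were called under every alternative that tested them. The strict filter left some untested: Sycp1 without DOX and Syce3 and Spo11 with DOX between the lines, and Sycp2, Tex11, Meiob, Tdrd6, Tdrd9, Stk31, Stra8, Taf7l and Rpl10l in the DKO comparison. Members lower with DOX in iETV2 numbered 2 under the strict filter, the replicate block and the fit of all 18 libraries. Members higher with DOX in the H188A line numbered 3 without a filter, 2 in the fit of all 18 libraries and 0 with the receptor covariate, and 1 was lower without a filter. Members with a higher change in the interaction numbered 1 without a filter and 1 with the covariate. The cause was not tested.

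Leaving out 1 library gave 13 to 17 higher and 1 to 2 lower for DOX in iETV2, 0 to 1 higher in the H188A line, and 1 to 3 higher and 15 to 19 lower in the interaction. It gave 26 to 32 higher in the DKO comparison, 1.167 to 2.667 for the difference in members with a region, and -1.622 to 8.638 kb for covered length. Uncalled changes turned in sign: Tex11 in the H188A line to 0.007 without a filter and from -0.162 to 0.119 without 1 library, Mael there to 0.046 without a filter, 0.085 with the covariate and from -0.124 to 0.210 without 1 library. With the covariate the values were 0.404 for Stra8, DOX in the H188A line, and 1.262 for Stra8, interaction of line and DOX, and the interaction ran from -1.078 to 0.356 without 1 library. Rec8 for DOX in iETV2 ran from -0.131 to 0.012 without 1 library.

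Replicate numbers were not shown to pair the samples: the correlations of deviations were 0.072, 0.311 and 0.577 in iETV2, -0.24, 0.135 and 0.37 in the H188A line and -0.002, -0.008 and 0.026 in the DKO comparison. With the replicate block 22 were higher and 2 lower for DOX in iETV2, 1 higher in the H188A line, 2 higher and 18 lower in the interaction, 26 and 25 higher between the lines, and 29 higher in the DKO comparison. The covariate for iETV2 and for the DKO comparison was chosen after seeing the data. Members under about 1 CPM are limited by depth.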
